A study of Mus musculus with 24 samples.

Results

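The genes described here are 10 transcription factors that direct the fate of photoreceptors or of their precursors: Otx2, Crx, Prdm1, Nrl, Nr2e3, Rorb, Thrb, Rxrg, Neurod1 and Mef2d. They were taken by gene symbol from a table of 28802 genes, in which each of the 10 symbols was found, and all 10 passed the limit of a mean of at least 0.5 cpm (counts divided by the library total, in the deposited unit) that left 16400 genes for testing. The table holds 24 libraries of RNA sequencing from the retina of wild-type mice at postnatal day 28. They came from the 8 founder strains of the Collaborative Cross with 3 libraries each, namely the wild-derived CAST/EiJ, PWK/PhJ and WSB/EiJ and the classical strains NZO/HlLtJ, A/J, NOD/ShiLtJ, 129S1/Svlmj and C57BL/6J. The question addressed here is how far the level of each factor differed with the genetic background. The study's methods treat each library as a biological replicate, the labels say nothing more about the animals, and the sex of the mice is not among the labels. Libraries of a strain are numbered 1 to 3 here, and the number is only a name.

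Photoreceptors arise from precursors in which OTX2 switches on CRX, and both are homeodomain proteins that bind the same short core motif in the promoters of photoreceptor genes. NRL and its target NR2E3 commit a precursor to the rod fate and repress cone genes, RORB acts upstream of NRL, and thyroid hormone receptor beta and RXR gamma set the pattern of cone opsins. PRDM1 holds OTX2-positive precursors back from the bipolar cell fate, while NEUROD1 and MEF2D support the survival and the gene expression of photoreceptors.

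Depth, worked out from the size of 1 read, was 57607000 to 78150000 reads per library, so that a value of 3 reads corresponded to 0.0384 to 0.0521 cpm. Each member lay above this in each library, the lowest value being 0.769 cpm for Rxrg in NZO/HlLtJ library 3. The tissue label was checked with photoreceptor markers, and all 15 rod and all 10 cone genes of 2 marker lists had a mean above 0.5 cpm. Some libraries stood apart before any comparison was made. Xist was at 906.2 to 1081 cpm in 4 libraries (129S1/Svlmj 3, C57BL/6J 3, PWK/PhJ 2 and CAST/EiJ 3) and at most 9.71 cpm in the other 20. The Y-linked Ddx3y was at most 0.118 cpm in these 4 and at 24.8 to 35.2 cpm in the other 20. This is the pattern of female tissue, though the labels do not give the sex. No library of A/J, NOD/ShiLtJ, NZO/HlLtJ or WSB/EiJ had it, so it was unevenly spread over the strains. Lens transcripts, summed over 7 markers, reached 914 cpm in 129S1/Svlmj library 2, 126 cpm in C57BL/6J library 2 and 1052 cpm in NOD/ShiLtJ library 2, against at most 49.1 cpm elsewhere. WSB/EiJ library 2 had the lowest summed level over all genes, 332469 cpm. Results are therefore given with and without the 4 libraries high in Xist and the 3 high in lens transcripts, alternatives chosen after seeing the data. Each set takes 1 library from each strain that it touches. A call lost in such a fit can also come from the smaller number of libraries, and the fits are no test of sex.

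Within the retina the factors covered a wide range of abundance. The 10 are ranked here per kb of exon, with the exons of all annotated transcripts merged. The order rests on this length, which was 3160 bases for Crx and 5689 bases for Nrl, in 2 blocks from 7 transcripts. On this scale Crx was the most abundant of the 10, at 124.2 cpm per kb over the 24 libraries. The rod factors Nrl at 58.1 and Nr2e3 at 50.8 came next. Neurod1 followed at 42.3, Otx2 at 15.15 and Rorb at 13.6 cpm per kb. The least abundant were Mef2d at 7.10, Thrb at 3.93, Prdm1 at 1.44 and Rxrg at 0.490 cpm per kb. These levels describe bulk tissue, in which fewer cells of a type and less RNA per cell cannot be told apart. Each is a total per gene over all its transcripts, and photoreceptors were not separated from other cells.

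All 10 factors differed between strains by limma's moderated F-test on log2(cpm + 1), with Benjamini-Hochberg adjusted p from 1.66e-11 for Prdm1 to 0.0379 for Mef2d. This count does not set the factors apart, because 82.1% of the genes tested passed the same threshold of 0.05. The differences were mostly small. Of the factors called, 4 had a highest strain mean at least 1.5 times the lowest (Prdm1, Rorb, Rxrg and Nr2e3), which is 40% of the 10 beside 45.0% of all genes tested that met both conditions, and the median ratio was 1.41 beside 1.46 over all genes. The median share of the log2 variance that lay between strains was 81.4% for the factors and 75.5% for all genes tested. Of the 280 pairs of strains, 28 for each factor, 122 (43.6%) differed, beside 35.5% of the pairs over all genes, and of 80 comparisons of 1 strain with the mean of the other 7, 40 (50%) were called beside 37.6%. These shares were not tested against the background and are given as a description only. The number of pairs called ran from 4 of 28 for Mef2d to 20 of 28 for Thrb, with a median of 10 over all genes tested. Without the 4 libraries high in Xist 8 of the 10 factors, 106 pairs and 34 comparisons were called. Of the original calls these kept 100 pairs and 34 comparisons, and 6 pairs were new. Without the 3 high in lens transcripts 10 factors, 122 pairs and 39 comparisons were called. Here 112 of the original pairs and 37 of the original comparisons were kept, with 10 and 2 new ones. With weights for libraries 120 of the original 122 pairs and all 40 original comparisons were called again, with 34 and 5 new ones.

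**Figure D1:**
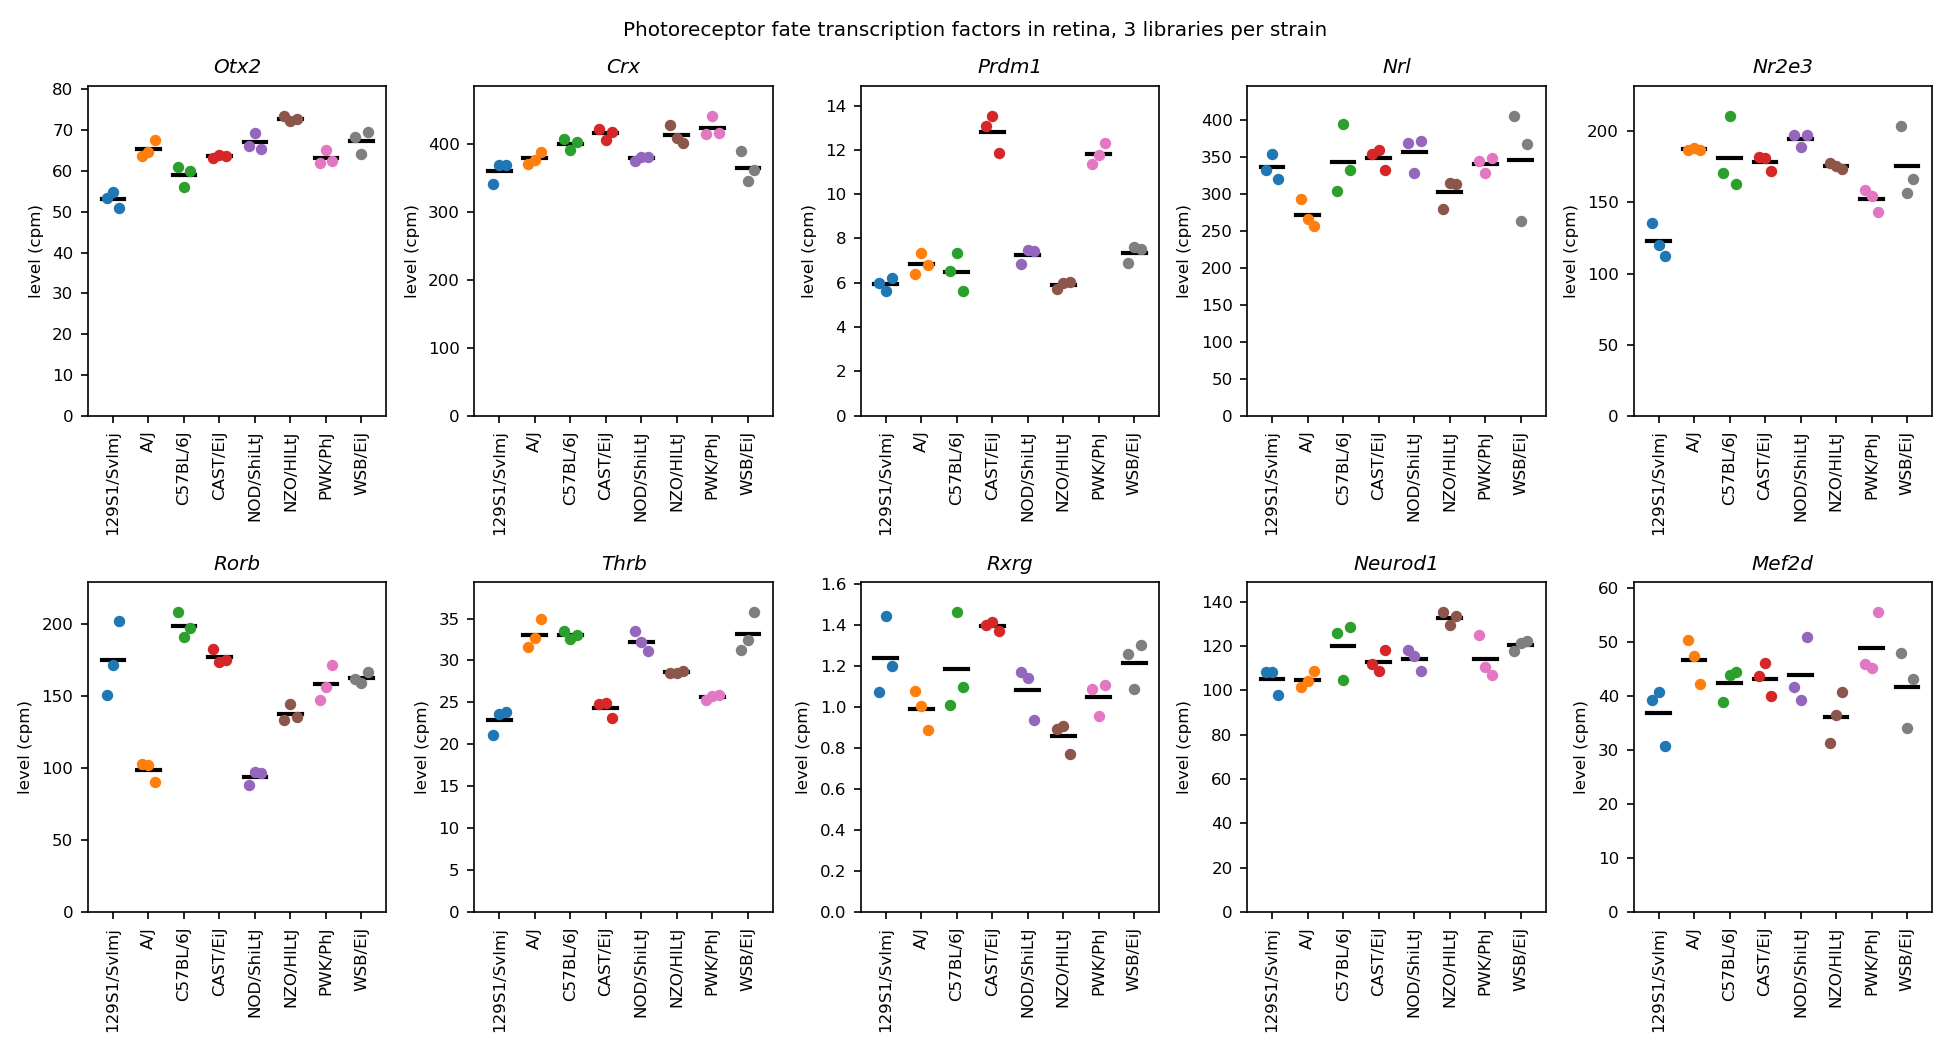
Level of each factor in cpm (vertical axes, from 0) in the 24 libraries, grouped by strain on the horizontal axes; each point is 1 library and each line the mean of 3. Prdm1 was at 11.3 to 13.5 cpm in CAST/EiJ and PWK/PhJ and at most at 7.63 cpm elsewhere, Rorb was at most 102.9 cpm in A/J and NOD/ShiLtJ, and Crx varied little.

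Otx2, the homeobox gene at the head of this network, which adult bipolar cells and pigment epithelium also express, was highest in NZO/HlLtJ and lowest in 129S1/Svlmj. The 3 libraries of a strain measured 73.5, 72.3 and 72.85 cpm in NZO/HlLtJ, 68.3, 64.2 and 69.7 cpm in WSB/EiJ, 66.3, 69.4 and 65.5 cpm in NOD/ShiLtJ and 63.8, 64.7 and 67.5 cpm in A/J. Values of 63.3, 63.85 and 63.6 cpm in CAST/EiJ and 61.9, 65.1 and 62.5 cpm in PWK/PhJ followed. The lowest levels were 61.0, 56.0 and 59.9 cpm in C57BL/6J and 53.3, 55.0 and 50.85 cpm in 129S1/Svlmj. The 3 NZO/HlLtJ libraries were the highest of the 24 and did not overlap any other strain, the 3 of 129S1/Svlmj were the lowest, and the 3 of C57BL/6J came next. NZO/HlLtJ exceeded 129S1/Svlmj by 0.45 ± 0.042 (SE, n = 3 libraries each) on the log2(cpm + 1) scale (limma, adjusted p = 1.04e-08), a difference of 0.42 without the libraries high in Xist and 0.48 without those high in lens transcripts. On the scale of the rod genes it was smaller, at 0.24 (adjusted p = 0.00268). Differences between strains made up 92.3% of the log2 variance of Otx2. Along the order of strain means, the step from C57BL/6J down to 129S1/Svlmj was called at 0.15 (adjusted p = 0.0072), but its direction turned to -0.012 when each library was scaled to its rod genes. That scale also turned the called pairs of Otx2 in 129S1/Svlmj and CAST/EiJ and in A/J and NZO/HlLtJ, neither called there (adjusted p = 0.442 and 0.689). The step from NZO/HlLtJ to WSB/EiJ was called at 0.11 (adjusted p = 0.0428) but in only 15 of 24 fits that left out 1 library, with adjusted p up to 0.187; the 5 other neighbours did not differ beyond their spread.

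Against the mean of the other 7 strains, Otx2 was lower in 129S1/Svlmj (-0.30 ± 0.032, adjusted p = 9.49e-08) and higher in NZO/HlLtJ by 0.22 ± 0.032 (adjusted p = 7.79e-06), and both calls were made in each of the 24 fits that left out 1 library. C57BL/6J was lower (-0.125, adjusted p = 0.0034), a call lost without its library 2, the one high in lens transcripts, at -0.088 (adjusted p = 0.0578). The smaller increases of 0.092 in WSB/EiJ (adjusted p = 0.0263) and 0.084 in NOD/ShiLtJ (adjusted p = 0.0423) were less stable. The first was lost without WSB/EiJ library 1 (adjusted p = 0.102) or 3 (adjusted p = 0.175), and the second in 11 of the 24 fits, with the highest p of 0.246 without NOD/ShiLtJ library 2. Without the libraries high in lens transcripts the calls of Otx2 in C57BL/6J (adjusted p = 0.0809) and NOD/ShiLtJ (adjusted p = 0.223) were lost, and without those high in Xist that in NOD/ShiLtJ (adjusted p = 0.0593). Median-ratio scaling (adjusted p = 0.265), quantile normalization (adjusted p = 0.125), rod scaling (adjusted p = 0.106), the lens covariate (adjusted p = 0.101) and leaving out CAST/EiJ and PWK/PhJ (adjusted p = 0.0839) each ended the call in NOD/ShiLtJ, and the last also that in WSB/EiJ (adjusted p = 0.0571). The summed level of 8 bipolar cell markers was highest in WSB/EiJ (624 cpm), NZO/HlLtJ (548 cpm) and NOD/ShiLtJ (518 cpm). These are the 3 strains highest in Otx2. The lowest sum was that of C57BL/6J (465 cpm), not that of 129S1/Svlmj, the strain lowest in Otx2. The 129S1/Svlmj mean of 486 cpm was close to A/J (485 cpm) and above CAST/EiJ (473 cpm). Of the single markers, Vsx1 and Isl1 had their highest mean in NZO/HlLtJ and Pcp2 its lowest. The part of bipolar cells in the Otx2 differences was not tested.

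Crx, the cone-rod homeobox gene that OTX2 induces and that activates most photoreceptor genes, had the narrowest strain range of the 10 factors. Libraries read 415, 442 and 417 cpm in PWK/PhJ, 423, 407 and 419 cpm in CAST/EiJ, 428.5, 409.8 and 402 cpm in NZO/HlLtJ and 408, 392 and 404 cpm in C57BL/6J. The other strains gave 376, 382 and 381 cpm in NOD/ShiLtJ, 372, 377 and 389 cpm in A/J, 390.2, 345.5 and 362 cpm in WSB/EiJ and 342, 369.5 and 370.3 cpm in 129S1/Svlmj. All 12 libraries of the first 4 strains lay above all 12 of the last 4, with 392 cpm as the lowest of the upper set and 390.2 cpm as the highest of the lower. The ratio of the highest to the lowest strain mean was 1.18, at the percentile 9.29 of this ratio over all genes tested. PWK/PhJ exceeded 129S1/Svlmj by 0.24 ± 0.045 (limma, adjusted p = 0.000239), a log2 difference of 0.23 and 0.25 without the libraries high in Xist and in lens transcripts. None of the 7 neighbours in the order of strains differed beyond their spread, with adjusted p from 0.189 to 0.984, although 14 of the 28 pairs were called.

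The direction of several Crx differences depended on the scale. CRX activates photoreceptor genes, so the rod scale gives Crx relative to its own targets. A call lost or turned there does not show that the levels per total reads were alike. Per total reads, Crx was lower in 129S1/Svlmj (-0.14 ± 0.034, adjusted p = 0.00273) and higher in CAST/EiJ by 0.10 ± 0.034 (adjusted p = 0.0253) than in the other 7, but scaled to the rod genes the first became 0.022 (adjusted p = 0.698) and the second -0.11 (adjusted p = 0.034). On the rod scale PWK/PhJ and 129S1/Svlmj no longer differed at the threshold, at 0.068 (adjusted p = 0.341). Of the 14 Crx pairs called, 7 turned on the rod scale, and that of CAST/EiJ and A/J was called both ways, higher in CAST/EiJ per total reads and higher in A/J by 0.17 per rod genes (adjusted p = 0.0146). The lower level in 129S1/Svlmj was called in all 24 fits that left out 1 library, with adjusted p up to 0.049. The higher level of Crx in PWK/PhJ, at 0.13 (adjusted p = 0.00385), was not called without PWK/PhJ library 2 (adjusted p = 0.0529). That in CAST/EiJ was not called without its library 1 (adjusted p = 0.113) or 3 (adjusted p = 0.0811). The lower level in WSB/EiJ, at -0.115 (adjusted p = 0.0108), was not called without WSB/EiJ library 2, at -0.074 (adjusted p = 0.129), or 3 (adjusted p = 0.051), and a call in NZO/HlLtJ at 0.087 (adjusted p = 0.0489) was made in 7 of the 24 fits only, with adjusted p up to 0.262 without NZO/HlLtJ library 1. Without the libraries high in Xist the 3 increases were not called, at adjusted p = 0.0678 in PWK/PhJ, 0.0802 in CAST/EiJ and 0.0532 in NZO/HlLtJ. Without those high in lens transcripts that in NZO/HlLtJ was lost (adjusted p = 0.0634). Neither set held a library of NZO/HlLtJ. The rod scale also ended the Crx calls in NZO/HlLtJ (adjusted p = 0.912), PWK/PhJ (adjusted p = 0.0557) and WSB/EiJ (adjusted p = 0.16). Further calls of Crx were lost in CAST/EiJ under quantile normalization (adjusted p = 0.245) or with Xist as a covariate (adjusted p = 0.0543), in WSB/EiJ under median-ratio scaling (adjusted p = 0.0891) or without CAST/EiJ and PWK/PhJ (adjusted p = 0.128), and in NZO/HlLtJ with no limit on low values (adjusted p = 0.0843) or with the lens covariate (adjusted p = 0.0572).

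Prdm1, the zinc finger repressor that keeps OTX2-positive precursors from becoming bipolar cells, had the largest ratio of highest to lowest strain mean of the 10, although on the log2(cpm + 1) scale the range of Rorb was wider. Values of 13.1, 13.5 and 11.85 cpm in CAST/EiJ and 11.3, 11.75 and 12.3 cpm in PWK/PhJ stood apart from the rest. WSB/EiJ had 6.90, 7.63 and 7.53 cpm, NOD/ShiLtJ 6.85, 7.495 and 7.42 cpm and A/J 6.40, 7.35 and 6.80 cpm. The lowest means belonged to C57BL/6J with 6.52, 7.36 and 5.64 cpm, 129S1/Svlmj with 5.98, 5.61 and 6.21 cpm and NZO/HlLtJ with 5.71, 5.98 and 6.02 cpm. All 6 libraries of CAST/EiJ and PWK/PhJ were above all 18 of the other strains, 11.3 cpm against at most 7.63 cpm, and they overlapped each other. The mean of 12.8 ± 0.866 cpm (SD, n = 3) in CAST/EiJ was 2.17 times the 5.90 ± 0.170 cpm of NZO/HlLtJ, at the percentile 81.05 of this ratio over all genes tested. On the log2(cpm + 1) scale that was 1.00 ± 0.072 (limma, adjusted p = 1.35e-10), and 1.05 without the libraries high in Xist or 1.00 without those high in lens transcripts.

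Of the 7 steps down the order of Prdm1 levels, the 1 called was that from PWK/PhJ to WSB/EiJ, at 0.62 (limma, adjusted p = 3.91e-07), and p was at most 6.43e-06 when any 1 library was left out. CAST/EiJ and PWK/PhJ did not differ beyond their spread (adjusted p = 0.26), nor did any neighbours among the lower 6, with adjusted p from 0.263 to 0.964. Against the mean of the other 7 strains Prdm1 was higher by 0.75 ± 0.055 in CAST/EiJ (adjusted p = 1.43e-10) and by 0.63 ± 0.055 in PWK/PhJ (adjusted p = 3.18e-09). The 4 lower calls were -0.39 in NZO/HlLtJ, -0.38 in 129S1/Svlmj, -0.26 in C57BL/6J and -0.18 in A/J, all set against a mean that held CAST/EiJ and PWK/PhJ. With these 2 strains left out the comparison of 129S1/Svlmj gave -0.16 (adjusted p = 0.0534), C57BL/6J -0.03 (adjusted p = 0.762) and A/J 0.053 (adjusted p = 0.559), and that of A/J was also lost without A/J library 1 (adjusted p = 0.107) and on the rod scale (adjusted p = 0.589).

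Nrl, the leucine zipper factor that commits precursors to the rod fate, was lowest in A/J, and its calls were among the least stable of the 10. A/J had 294, 266 and 257 cpm and NZO/HlLtJ 280, 315 and 313 cpm. The strains with higher means gave 368, 328 and 372 cpm in NOD/ShiLtJ, 354, 359 and 332 cpm in CAST/EiJ, 345, 328 and 349 cpm in PWK/PhJ and 333, 355 and 320.3 cpm in 129S1/Svlmj. Replicates spread most in WSB/EiJ, at 405, 263 and 368 cpm (coefficient of variation 21.3%), and in C57BL/6J, at 304, 394 and 333 cpm (13.5%). The A/J libraries lay below all others except NZO/HlLtJ library 1 and WSB/EiJ library 2, and the other 6 strains overlapped one another. NOD/ShiLtJ exceeded A/J by 0.39 ± 0.109 (limma, adjusted p = 0.00753), with 0.39 without the libraries high in Xist and 0.445 without those high in lens transcripts. No neighbours in the order of strains differed beyond their spread (adjusted p from 0.3 to 0.982), and the 6 pairs called of 28 all had A/J as the lower strain. Only 1 of these 6 pairs was called in all 24 fits that left out 1 library. Against the other 7 strains A/J was lower (-0.31 ± 0.083, adjusted p = 0.00463), in all 24 fits that left out 1 library, and no other strain was called with all libraries in the fit. Without WSB/EiJ library 2, however, Nrl was called higher in WSB/EiJ, at 0.24 (adjusted p = 0.00931) instead of 0.057 (adjusted p = 0.627), and lower in NZO/HlLtJ (adjusted p = 0.0336). That library had the lowest sum of the rod genes of all 24, 13888 cpm against 16888 and 14911 cpm in the other libraries of its strain.

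The F-test of Nrl over 8 strains (limma, adjusted p = 0.0364) passed the threshold in 17 of the 24 fits that left out 1 library, most clearly without WSB/EiJ library 2 (adjusted p = 0.000373), and with weights for libraries it gave 0.000231. It was lost without A/J library 2 (adjusted p = 0.125) or 3 (adjusted p = 0.152), NOD/ShiLtJ library 1 (adjusted p = 0.0571) or 3 (adjusted p = 0.0556), NZO/HlLtJ library 1 (adjusted p = 0.0572) and CAST/EiJ library 1 (adjusted p = 0.053) or 2 (adjusted p = 0.0518). It was also lost without the 4 libraries high in Xist (adjusted p = 0.0691), with the lens markers as a covariate (adjusted p = 0.0606), with no limit on low values (adjusted p = 0.062) and without CAST/EiJ and PWK/PhJ (adjusted p = 0.0702).

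Nr2e3, the orphan nuclear receptor that acts with NRL and represses cone genes in rods, was lowest in 129S1/Svlmj, where Nrl was not. Its libraries read 136, 120.4 and 112 cpm in 129S1/Svlmj and 159, 155 and 143 cpm in PWK/PhJ. Higher levels were 197, 189 and 198 cpm in NOD/ShiLtJ, 187, 188.5 and 187 cpm in A/J, 178, 175.5 and 173 cpm in NZO/HlLtJ and 182, 181.5 and 172 cpm in CAST/EiJ. C57BL/6J had 170.5, 211 and 163 cpm and WSB/EiJ 204, 157 and 166.5 cpm. The 3 libraries of 129S1/Svlmj were the lowest of the 24, and of the other 18 outside PWK/PhJ only WSB/EiJ library 2 reached down into the PWK/PhJ range. The mean of 195 ± 4.99 cpm in NOD/ShiLtJ was 1.59 times the 123 ± 11.95 cpm (SD, n = 3) of 129S1/Svlmj, a log2 difference of 0.67 ± 0.085 (limma, adjusted p = 1.4e-06), or 0.60 and 0.68 without the libraries high in Xist and in lens transcripts. The step from PWK/PhJ to 129S1/Svlmj was called at 0.31 (adjusted p = 0.00597), in each fit that left out 1 library. The 6 steps above it were not, with adjusted p from 0.0648 to 0.96.

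Against the mean of the other 7 strains, Nr2e3 was lower in 129S1/Svlmj (-0.53 ± 0.064, adjusted p = 6.17e-07) and higher in NOD/ShiLtJ by 0.23 ± 0.064 (adjusted p = 0.00692), each called in all 24 fits that left out 1 library. PWK/PhJ was lower (-0.17, adjusted p = 0.0369), which was lost without PWK/PhJ library 2 (adjusted p = 0.073) or 3 (adjusted p = 0.2). A/J was higher by 0.17 (adjusted p = 0.042), which was lost in 11 of the 24 fits, with the highest p of 0.112 without A/J library 2. The call in A/J was also lost without the libraries high in Xist (adjusted p = 0.0828), with Xist as a covariate (adjusted p = 0.0729), under median-ratio scaling (adjusted p = 0.0504), with no limit on low values (adjusted p = 0.0629) and without CAST/EiJ and PWK/PhJ (adjusted p = 0.106). That of Nr2e3 in PWK/PhJ was lost with Xist as a covariate (adjusted p = 0.0564) and with no limit on low values (adjusted p = 0.0558). C57BL/6J library 2, high in lens transcripts, had the highest Nrl and Nr2e3 of its strain and the lowest Crx, Otx2, Rorb and Neurod1.

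Rorb, the retinoid-related orphan receptor that acts upstream of Nrl in rod precursors, divided the strains more clearly than either rod factor. Libraries of the low strains gave 88.1, 97.3 and 96.7 cpm in NOD/ShiLtJ and 103, 102 and 90.5 cpm in A/J. Intermediate levels were 133, 144 and 135.5 cpm in NZO/HlLtJ, 147, 157 and 171.5 cpm in PWK/PhJ and 162, 159 and 167 cpm in WSB/EiJ. The highest means were those of C57BL/6J with 208, 191 and 197 cpm, CAST/EiJ with 182.5, 174 and 175 cpm and 129S1/Svlmj with 151, 171 and 202 cpm. The 6 libraries of A/J and NOD/ShiLtJ overlapped each other and lay below the other 18, of which the lowest was 133 cpm, while the libraries of 129S1/Svlmj overlapped those of PWK/PhJ, WSB/EiJ, CAST/EiJ and C57BL/6J. C57BL/6J, at 199 ± 8.50 cpm, had 2.11 times the 94.05 ± 5.13 cpm (SD, n = 3) of NOD/ShiLtJ, or 1.07 ± 0.076 on the log2 scale (limma, adjusted p = 1.06e-10). That log2 difference was 1.08 without the libraries high in Xist and 1.12 without those high in lens transcripts.

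In the order of Rorb levels the step from NZO/HlLtJ to A/J was called at 0.48 (limma, adjusted p = 2.65e-05) in every fit that left out 1 library, and A/J and NOD/ShiLtJ did not differ beyond their spread (adjusted p = 0.553). The step from PWK/PhJ to NZO/HlLtJ (adjusted p = 0.0476) was called in 8 of 24 such fits, with adjusted p up to 0.209. The 4 steps from C57BL/6J down to PWK/PhJ were not called, with adjusted p from 0.103 to 0.801. Against the mean of the other 7 strains Rorb was lower in NOD/ShiLtJ (-0.71 ± 0.058, adjusted p = 9.44e-10) and in A/J (-0.64 ± 0.058, adjusted p = 6.05e-09). It was higher in C57BL/6J by 0.51 ± 0.058 (adjusted p = 2.14e-07), in CAST/EiJ by 0.32 (adjusted p = 0.000102), in 129S1/Svlmj by 0.29 (adjusted p = 0.000349) and in WSB/EiJ by 0.18 (adjusted p = 0.0163). The call in WSB/EiJ was lost without WSB/EiJ library 3 (adjusted p = 0.0786), and that in CAST/EiJ on the rod scale, at 0.11 (adjusted p = 0.238). The size of the increase in 129S1/Svlmj ran from 0.18 to 0.39 over the fits that left out 1 library, and PWK/PhJ was called higher in 2 of these fits, without PWK/PhJ library 1 or 129S1/Svlmj library 3.

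Thrb, the thyroid hormone receptor gene that cones need for their M opsin, fell into levels that hardly overlapped. The values are for the whole gene and do not tell its 7 annotated transcripts apart. The low strains measured 21.1, 23.6 and 23.9 cpm in 129S1/Svlmj, 24.85, 24.95 and 23.1 cpm in CAST/EiJ and 25.3, 25.8 and 25.9 cpm in PWK/PhJ. NZO/HlLtJ had 28.5, 28.6 and 28.8 cpm, with a coefficient of variation of 0.525%. The remaining strains gave 31.25, 32.4 and 35.7 cpm in WSB/EiJ, 31.65, 32.7 and 34.9 cpm in A/J, 33.5, 32.6 and 33 cpm in C57BL/6J and 33.5, 32.15 and 31.1 cpm in NOD/ShiLtJ. The libraries of NZO/HlLtJ lay above all 9 of the 3 low strains and below all 12 of the 4 high strains, within which the libraries overlapped. WSB/EiJ exceeded 129S1/Svlmj by 0.52 ± 0.052 (limma, adjusted p = 4.13e-08), 1.45 times in cpm. That log2 difference was 0.55 without the libraries high in Xist and 0.54 without those high in lens transcripts. Thrb had the most pairs called of the 10 factors, 20 of 28.

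The steps from NOD/ShiLtJ to NZO/HlLtJ at 0.17 (limma, adjusted p = 0.0159) and from NZO/HlLtJ to PWK/PhJ at 0.15 (adjusted p = 0.0275) were called, and the other 5 neighbours of the Thrb order were not (adjusted p from 0.22 to 0.992). The first step was lost without NOD/ShiLtJ library 1 (adjusted p = 0.0733). The second was lost without PWK/PhJ library 1 or 2 or any 1 library of NZO/HlLtJ, with adjusted p up to 0.0714. Against the mean of the other 7 strains Thrb was lower in 129S1/Svlmj (-0.37 ± 0.04, adjusted p = 9.39e-08), in CAST/EiJ (-0.27 ± 0.04, adjusted p = 8.46e-06) and in PWK/PhJ (-0.18 ± 0.04, adjusted p = 0.000754). It was higher by 0.22 in WSB/EiJ, 0.22 in A/J, 0.22 in C57BL/6J and 0.18 in NOD/ShiLtJ, with adjusted p from 0.000112 to 0.00098, and NZO/HlLtJ at -0.011 (adjusted p = 0.857) was not called; the 7 calls were made in each of the 24 fits that left out 1 library, and that in NOD/ShiLtJ was lost without CAST/EiJ and PWK/PhJ (adjusted p = 0.0741). The summed level of 10 cone genes was lowest in CAST/EiJ at 291.5 ± 9.20 cpm and highest in PWK/PhJ at 449 ± 5.96 cpm (SD, n = 3), 2 strains in which Thrb was low, and its part in these differences was not tested.

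Rxrg, the retinoid X receptor that partners thyroid hormone receptor beta in cones, was expressed at 0.769 to 1.46 cpm, the lowest level of the 10. CAST/EiJ had 1.40, 1.41 and 1.37 cpm and NZO/HlLtJ 0.893, 0.906 and 0.769 cpm. The other strains gave 1.07, 1.44 and 1.20 cpm in 129S1/Svlmj, 1.26, 1.09 and 1.30 cpm in WSB/EiJ and 1.01, 1.46 and 1.09 cpm in C57BL/6J. Values of 1.17, 1.14 and 0.935 cpm in NOD/ShiLtJ, 1.085, 0.955 and 1.11 cpm in PWK/PhJ and 1.075, 1.00 and 0.886 cpm in A/J came next. CAST/EiJ and NZO/HlLtJ did not overlap, but library 2 of 129S1/Svlmj and of C57BL/6J, both high in lens transcripts, exceeded all 3 of CAST/EiJ, and A/J library 3 fell within the range of NZO/HlLtJ. CAST/EiJ exceeded NZO/HlLtJ 1.63 times in cpm, or by 0.37 ± 0.076 on the log2(cpm + 1) scale, which understates a change at so low a level (limma, adjusted p = 0.000512). Without the libraries high in Xist that log2 difference was 0.375 and without those high in lens transcripts 0.37. No neighbours in the order of strains differed beyond their spread (adjusted p from 0.33 to 0.924). Only CAST/EiJ, at 0.20 ± 0.057 (adjusted p = 0.0076), and NZO/HlLtJ, at -0.22 ± 0.057 (adjusted p = 0.00428), were called against the other 7 strains, in all 24 fits that left out 1 library. On the rod scale the increase in CAST/EiJ was not called, at 0.082 (adjusted p = 0.273), and without CAST/EiJ and PWK/PhJ the F-test of Rxrg over the other 6 strains gave adjusted p = 0.0523. CAST/EiJ was thus called higher for Rxrg and lower for Thrb.

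Neurod1, the basic helix-loop-helix factor needed for the survival of photoreceptors, was highest in NZO/HlLtJ. Libraries read 135, 129.6 and 133.5 cpm in NZO/HlLtJ, 118, 121 and 122 cpm in WSB/EiJ, 126, 105 and 129 cpm in C57BL/6J and 118, 116 and 109 cpm in NOD/ShiLtJ. The lower strains gave 125, 111 and 107 cpm in PWK/PhJ, 112, 109 and 118 cpm in CAST/EiJ, 108, 108 and 98.1 cpm in 129S1/Svlmj and 101.5, 104 and 109 cpm in A/J. The 3 NZO/HlLtJ libraries were the highest of the 24, with C57BL/6J library 3 just below them, and all libraries of 129S1/Svlmj and A/J lay below the 3 of WSB/EiJ. NZO/HlLtJ exceeded A/J by 0.34 ± 0.065 (limma, adjusted p = 0.000252), with 0.34 without the libraries high in Xist and 0.34 without those high in lens transcripts. On the rod scale that difference was 0.15 (adjusted p = 0.115). No step in the order of strains was called, with adjusted p from 0.104 to 0.996. Against the other 7 strains NZO/HlLtJ was higher by 0.23 ± 0.049 (adjusted p = 0.000641), in each fit that left out 1 library. A/J was lower (-0.15, adjusted p = 0.0168), which was lost without A/J library 1 (adjusted p = 0.0918) or 2 (adjusted p = 0.0605) and on the rod scale, at -0.016 (adjusted p = 0.846). In 129S1/Svlmj the level was lower (-0.15, adjusted p = 0.0173), but this turned to 0.006 on the rod scale (adjusted p = 0.944) and was lost without 129S1/Svlmj library 3, one of those high in Xist (adjusted p = 0.161), or without all 4 of these (adjusted p = 0.206). Without the libraries high in lens transcripts C57BL/6J was also called, at 0.16 (adjusted p = 0.0164), as it was without its library 2 alone, at 0.15 (adjusted p = 0.0152).

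Mef2d, the MADS-box factor that binds with CRX at photoreceptor genes, had the fewest strain pairs called, 4 of 28, and the smallest share of variance between strains (48.6%). PWK/PhJ had 45.9, 45.2 and 55.5 cpm, A/J 50.4, 47.3 and 42.2 cpm, 129S1/Svlmj 39.2, 40.8 and 30.8 cpm and NZO/HlLtJ 31.3, 36.6 and 40.8 cpm. The 4 other strains ranged from 34.1 cpm in WSB/EiJ library 2 to 50.9 cpm in NOD/ShiLtJ library 3, with means of 41.8 to 44.0 cpm. The libraries of PWK/PhJ and A/J lay above those of NZO/HlLtJ and 129S1/Svlmj, and the others overlapped both. PWK/PhJ exceeded NZO/HlLtJ by 0.42 ± 0.125 (limma, adjusted p = 0.0102). That pair was not called without PWK/PhJ library 3, at 0.33 (adjusted p = 0.0645), or without NZO/HlLtJ library 1, at 0.325 (adjusted p = 0.0676), while without the libraries high in Xist and in lens transcripts the log2 difference was 0.48 and 0.42. No neighbours differed beyond their spread (adjusted p from 0.317 to 0.931). NZO/HlLtJ was the 1 strain called against the other 7, lower (-0.25 ± 0.094, adjusted p = 0.0395), in 18 of 24 fits that left out 1 library, and shrank to -0.15 (adjusted p = 0.299) without NZO/HlLtJ library 1. The other losses, at differences of -0.245 to -0.26, were without C57BL/6J library 3 (adjusted p = 0.0506), A/J library 2 (adjusted p = 0.0503), WSB/EiJ library 3 (adjusted p = 0.051), NZO/HlLtJ library 2 (adjusted p = 0.0842) and CAST/EiJ library 2 (adjusted p = 0.0505). The call was also lost with no limit on low values (adjusted p = 0.0587) and without CAST/EiJ and PWK/PhJ, at -0.22 (adjusted p = 0.127). Without the libraries high in lens transcripts Mef2d was also called lower in 129S1/Svlmj, at -0.305 (adjusted p = 0.0354). Mef2d was called in 3 of the 24 fits in 129S1/Svlmj, lower, and in 4 in PWK/PhJ, higher. The F-test of Mef2d (adjusted p = 0.0379) was lost without A/J library 1 (adjusted p = 0.0601) or 2 (adjusted p = 0.0606), NZO/HlLtJ library 1 (adjusted p = 0.0902) or 2 (adjusted p = 0.0661), 129S1/Svlmj library 3 (adjusted p = 0.0638) or PWK/PhJ library 3 (adjusted p = 0.0819), and without the 4 libraries high in Xist (adjusted p = 0.0777), without CAST/EiJ and PWK/PhJ (adjusted p = 0.114) or with no limit on low values (adjusted p = 0.0591), while with weights for libraries it gave 0.00252.

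Read by strain, each of the 8 strains had at least 1 factor called higher and at least 1 called lower than the mean of the other 7. In 129S1/Svlmj 6 factors were lower (Thrb, Nr2e3, Prdm1, Otx2, Neurod1 and Crx) and only Rorb was higher. Of all genes tested 34.2% were called in that strain, 16.3% lower and 18% higher. For Crx and Neurod1 the decrease was lost on the rod scale, where the difference was small, of the other sign and not called, as given above. In A/J Rorb, Nrl, Prdm1 and Neurod1 were lower and Thrb and Nr2e3 higher, where 34.2% of genes were called, 15.4% lower and 18.8% higher. CAST/EiJ had Thrb lower and 4 factors higher per total reads (Prdm1, Rorb, Rxrg and Crx). Of these 4, on the rod scale only Prdm1 was called higher and Crx turned. In CAST/EiJ 49.7% of genes were called, 29.3% lower and 20.4% higher, the largest total share of the 8 strains. PWK/PhJ, with 49.6% of genes called (26.7% higher and 22.9% lower), had Prdm1 and Crx higher and Thrb and Nr2e3 lower. NZO/HlLtJ had Neurod1, Otx2 and Crx higher and Prdm1, Mef2d and Rxrg lower, beside 32.8% of genes (15.9% higher and 16.9% lower). In NOD/ShiLtJ Nr2e3, Thrb and Otx2 were higher and Rorb lower (30.8% of genes, 19.3% higher and 11.5% lower). WSB/EiJ had Thrb, Rorb and Otx2 higher and Crx lower (39% of genes, 14.3% higher and 24.7% lower). C57BL/6J had Rorb and Thrb higher and Prdm1 and Otx2 lower (30% of genes, 16.3% higher and 13.8% lower). Among the 28 pairs of strains, 129S1/Svlmj and NZO/HlLtJ differed in the most factors, 7 of 10 beside 23% of all genes tested. A/J and NOD/ShiLtJ differed in 1 factor beside 21.1% of genes, and NOD/ShiLtJ and WSB/EiJ in 1 beside 32.7%.

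**Figure D2:**
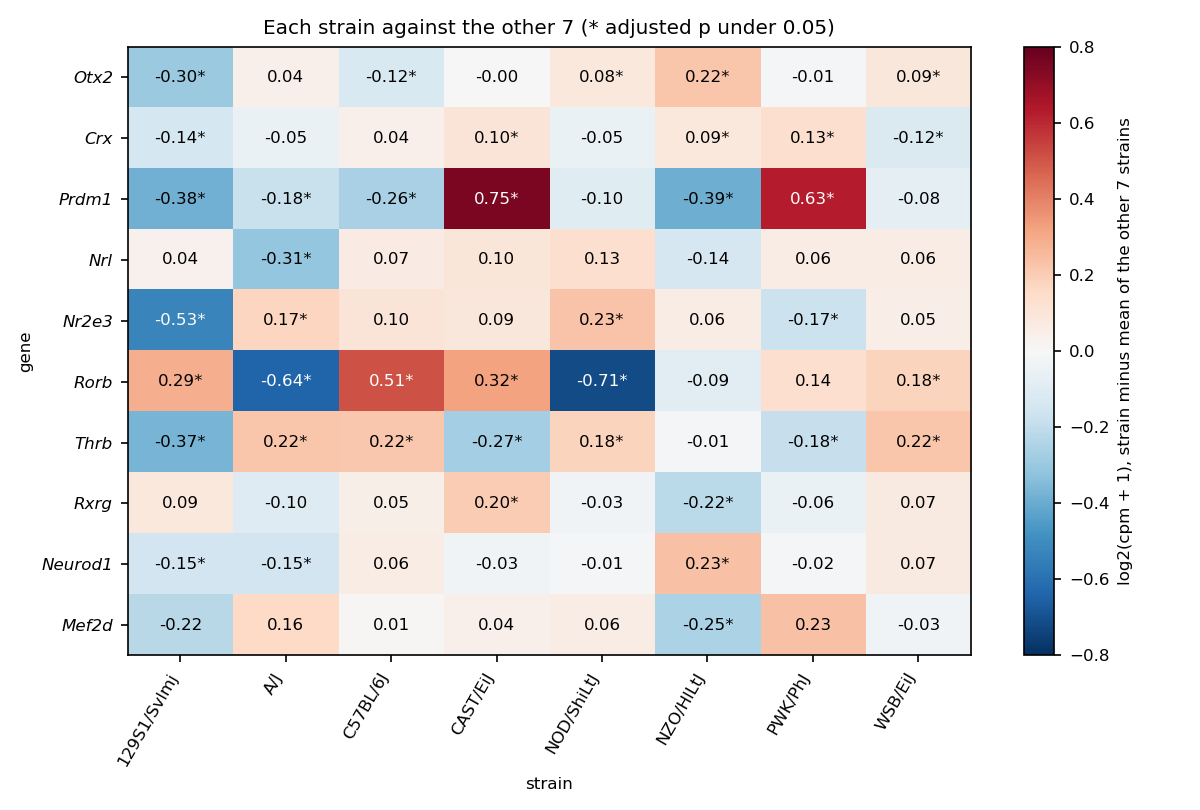
Each factor (rows) in each strain (columns) as the log2(cpm + 1) difference from the mean of the other 7 strains, with red for higher and blue for lower; a star marks an adjusted p under 0.05. Prdm1 reached 0.75 in CAST/EiJ and Rorb -0.71 in NOD/ShiLtJ, while the values of Crx lie between -0.14 and 0.13.

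Rod transcripts themselves differed between strains, which bears on the scale of these levels. Rod genes are also among the targets of these factors, so the rod scale gives a factor relative to its targets. It cannot decide if a difference per total reads was one of scaling. The 15 rod genes all passed the F-test, as did 82.1% of all genes, and their summed level was lowest in A/J (14684 cpm), followed by 129S1/Svlmj (15035 cpm), and highest in CAST/EiJ (17723 cpm). As a factor for scaling, the log2 level of the rod genes relative to the mean library was -0.14 in 129S1/Svlmj, -0.12 in A/J and 0.185 in CAST/EiJ, while scaling by the median ratio over all genes moved the strains by -0.0376 to 0.0299. After rod scaling 80 of the 122 pairs and 30 of the 40 comparisons of the 10 factors were still called, with 35 and 7 new ones. The 1 comparison with the other 7 strains called on both scales with opposite signs was Crx in CAST/EiJ. Between the same highest and lowest strains, the log2 differences on the rod scale were 1.04 for Rorb, 0.89 for Prdm1, 0.54 for Nr2e3, 0.47 for Mef2d, 0.42 for Thrb, 0.295 for Rxrg and 0.28 for Nrl, besides those of Otx2, Crx and Neurod1 given above. The ratio of the highest to the lowest of all 8 strains rose for Thrb from 1.45 to 1.68 on this scale. The summed level of the 10 factors was 1195 cpm in A/J and 1387 cpm in C57BL/6J at the extremes.

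Transcripts of the retinal pigment epithelium, which adjoins the photoreceptors and expresses Otx2, also varied. Of 9 markers 7 were tested and all 7 differed (limma, adjusted p under 0.05, beside 82.1% of all genes), and Best1 and Mlana were under 0.5 cpm. Rgr had the highest mean cpm, not corrected for length, at 4.00 to 38.4 cpm. The summed level of the 9 markers was 69.3 cpm in WSB/EiJ, 58.6 in A/J, 50.3 in 129S1/Svlmj, 34.2 in C57BL/6J, 33.8 in NOD/ShiLtJ, 19.4 in NZO/HlLtJ, 18.0 in PWK/PhJ and 16.8 in CAST/EiJ. With the mean of these markers as a covariate the Otx2 difference between NZO/HlLtJ and 129S1/Svlmj was 0.52 (adjusted p = 6.26e-08). The same covariate ended the calls of Otx2 in WSB/EiJ (adjusted p = 0.56), Nr2e3 in A/J (adjusted p = 0.202) and PWK/PhJ (adjusted p = 0.198), Rxrg in CAST/EiJ (adjusted p = 0.127), Mef2d in NZO/HlLtJ (adjusted p = 0.0618) and Prdm1 in A/J (adjusted p = 0.227), and the F-test of Nrl (adjusted p = 0.0571). The Prdm1 increases in CAST/EiJ and PWK/PhJ and the Rorb decreases in A/J and NOD/ShiLtJ kept their calls under it. These markers themselves differed between strains, so calls ended or kept under the covariate do not separate pigment epithelium from strain. What part pigment epithelium in the samples has in any of these differences was not tested further.

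**Figure D3:**
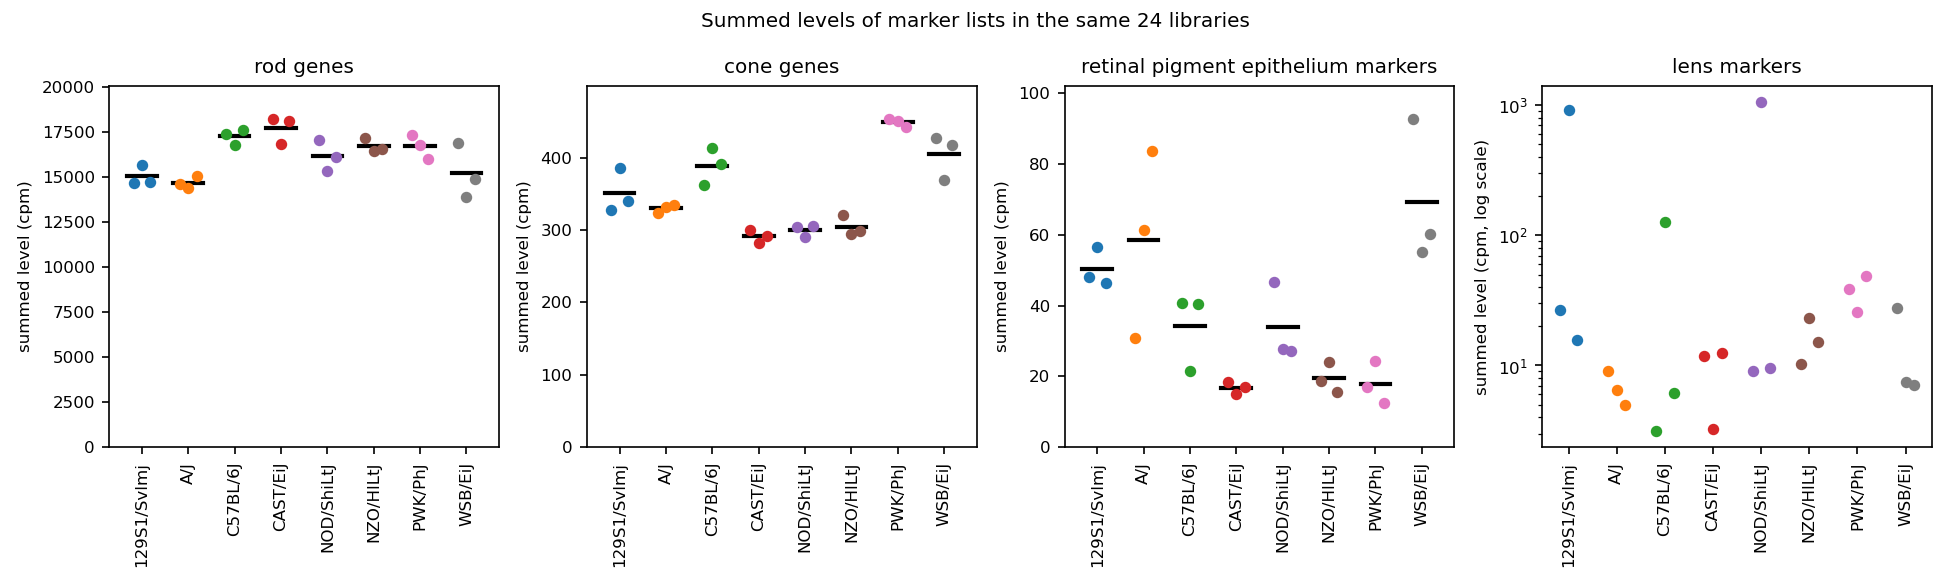
Summed level in cpm (vertical axes) of 15 rod genes, 10 cone genes, 9 pigment epithelium markers and, on a log axis, 7 lens markers in the 24 libraries by strain (horizontal axes); points are libraries and lines are means of 3. Lens markers exceeded 100 cpm in 3 libraries, and pigment epithelium markers were lowest in CAST/EiJ, PWK/PhJ and NZO/HlLtJ.

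Markers of other cells of the retina are read beside the 82.1% of all genes tested that the same F-test called. All 8 bipolar cell markers were called, 4 of 7 of amacrine cells, 2 of 3 tested of horizontal cells, 6 of 7 of ganglion cells and 7 of 7 of Muller glia. The 3 tested blood markers, 4 tested microglia markers and 3 endothelium markers were all called as well. None of the 7 lens markers was called by limma's F-test, and none had an unadjusted p under 0.05. Apart from the lens markers, the part of these markers in the differences of the 10 factors was not tested.

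The targets that these factors control were compared with them through the rod and cone lists. Among the rod genes the strain range had a median ratio of 1.33, close to the 1.41 of the factors, and was widest for Sag, the rod arrestin, with 2210 cpm in NOD/ShiLtJ and 917 cpm in C57BL/6J (limma, adjusted p = 1.01e-11). Reep6, a membrane shaping protein of rods, had 137 cpm in CAST/EiJ and 63.5 cpm in 129S1/Svlmj (adjusted p = 2.1e-06), and Gngt1, a rod transducin subunit, 543 cpm in CAST/EiJ and 294 cpm in C57BL/6J (adjusted p = 5.01e-11). The 10 cone genes had a median ratio of 2.40, and 8 of them reached 1.5, beside 45.0% of all genes. The S opsin Opn1sw had the highest mean cpm of these cone genes, not corrected for length, at 57.7 to 158 cpm. Pde6c, the cone phosphodiesterase, had 41.15 cpm in PWK/PhJ and 10.5 cpm in NOD/ShiLtJ (adjusted p = 4.86e-17), its inhibitory subunit Pde6h 32.6 cpm in C57BL/6J and 9.945 cpm in WSB/EiJ (adjusted p = 1.17e-15), and the cone arrestin Arr3 62.45 cpm in PWK/PhJ and 23.4 cpm in NZO/HlLtJ (adjusted p = 1.78e-09). Beside them, Thrb was highest in WSB/EiJ, Rxrg in CAST/EiJ and Nr2e3 and Nrl in NOD/ShiLtJ.

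Other regulators of photoreceptor development formed a list of 24 genes, of which 23 were in the table and 19 tested. By the F-test 15 of the 19 were called, beside 82.1% of all genes, and 12 of them were at least 1.5 times higher in the highest than in the lowest strain (45.0% of all genes), with a median ratio of 1.595 beside 1.41 for the 10 factors. Samd11, a rod protein of a Polycomb complex, had 212 cpm in PWK/PhJ and 35.4 cpm in A/J (limma, adjusted p = 4.63e-14). Its partner Samd7 had 124 cpm in CAST/EiJ and 38.4 cpm in NZO/HlLtJ (adjusted p = 5.17e-15). Esrrb, an orphan receptor of rods, had 121 cpm in CAST/EiJ and 43.6 cpm in A/J (adjusted p = 3.6e-11). Prdm1, Samd7 and Esrrb thus had their highest mean in CAST/EiJ.

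Partners of Thrb and Rxrg in thyroid and retinoid signalling were 10 genes, of which 8 were tested, 7 called (82.1% of all genes) and 4 at least 1.5 times higher in the highest than in the lowest strain (45.0% of all genes), while the deiodinase genes Dio1 and Dio3 were under 0.5 cpm. Dio2, which makes active thyroid hormone, had 66.5 ± 41.6 cpm (SD, n = 3) in 129S1/Svlmj, a wide spread between its libraries, and 13.6 cpm in A/J (limma, adjusted p = 2.67e-06). Rarb, a retinoic acid receptor, had 4.40 cpm in NOD/ShiLtJ and 2.045 cpm in WSB/EiJ (adjusted p = 3.36e-06). The relatives of the 10 factors in their own families were 15 genes, of which 12 were tested, 9 called (82.1% of all genes) and 5 at least 1.5 times higher in the highest strain (45.0%); Rora, Thra, Rxra and Rxrb also stand in the other 2 lists. Mef2c, of the family of Mef2d, had 68.3 cpm in CAST/EiJ and 24.9 cpm in NOD/ShiLtJ (adjusted p = 1.22e-12). Mef2c thus ranged 2.74 times where Mef2d ranged 1.35 times, and NOD/ShiLtJ had the lowest mean of both Mef2c and Rorb.

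The positions are those of GRCm38, in coordinates of the GENCODE annotation. Otx2 (chr14:48657677-48673819), Nrl (chr14:55518978-55524981) and Thrb (chr14:17660261-18038090) share chromosome 14. Crx is at chr7:15865947-15879968, Nr2e3 at chr9:59942771-59960659, Rorb at chr19:18930605-19111196 and Prdm1 at chr10:44437177-44528501. Rxrg is at chr1:167598384-167639623, Neurod1 at chr2:79452521-79456751 and Mef2d at chr3:88142372-88172086. The libraries were made with a stranded kit, but it is not stated for this table if counting was by strand. Overlapping or antisense genes may therefore share reads. For 6 members no gene of the table overlapped. Neurod1 shares 201 exon bases (7.37%) with Cerkl on the same strand, which was at 63.6 ± 3.17 cpm (SD, n = 3) in A/J and 11.7 ± 1.04 cpm to 26.8 ± 0.558 cpm in the other strains. Neurod1 had its lowest mean in A/J, and how reads were divided between these genes was not tested. Otx2 shares 154 exon bases with Otx2os1 on the opposite strand, at 4.36 to 6.87 cpm, and 168 with Gm49154 on its own, at 1.46 ± 0.147 cpm in C57BL/6J and 2.75 ± 0.155 cpm to 5.83 ± 0.6865 cpm elsewhere. Nr2e3 shares 61 with Gm15507, at most 0.0686 cpm, and its span holds Gm7616, at 0.341 to 2.51 cpm, with no shared exon bases. Mef2d shares 531 exon bases with 1700113A16Rik on the opposite strand, at 1e-04 to 0.665 cpm.

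Because CRX and OTX2 bind the same core, the promoters of the 10 genes were searched for TAATCC and TAATCT on both strands, in the 250 bases before each start in the RefSeq promoter table (build GRCm38.p6). Of 32851 promoter windows 6.25% held TAATCC, 7.31% TAATCT and 12.8% either. The 10 members had 16 windows, and 5 of these, 1 each of Crx, Nr2e3, Rorb, Thrb and Otx2, held a match. The Crx window held 2, which begin 94 and 21 bases before the start, that of Nr2e3 1 at 47, Rorb 1 at 47, Thrb 1 at 46 and Otx2 1 at 211. The windows of Nrl, Prdm1, Rxrg, Neurod1 and Mef2d held none of these letters in this stretch. The parts of 3 windows that lie outside annotated exons are printed from 5′ to 3′ on the strand of the gene, all on the minus strand, because they show where the core stands, with matches in capitals (GGATTA and AGATTA are the cores read on the other strand). They are chr7:15879969-15880205 upstream of Crx, chr9:59950118-59950329 before a start inside the annotated span of Nr2e3, and chr19:19001118-19001367 before an inner start of Rorb, also inside its span.
Crx: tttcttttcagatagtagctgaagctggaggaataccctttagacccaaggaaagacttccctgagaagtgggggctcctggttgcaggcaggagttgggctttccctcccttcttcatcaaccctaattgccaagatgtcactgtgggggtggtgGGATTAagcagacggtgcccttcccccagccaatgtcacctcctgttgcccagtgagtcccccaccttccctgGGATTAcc
Nr2e3: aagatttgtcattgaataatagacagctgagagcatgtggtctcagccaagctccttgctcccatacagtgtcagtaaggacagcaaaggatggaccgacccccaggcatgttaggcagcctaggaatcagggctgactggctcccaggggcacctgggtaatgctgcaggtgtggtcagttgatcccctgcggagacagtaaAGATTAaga
Rorb: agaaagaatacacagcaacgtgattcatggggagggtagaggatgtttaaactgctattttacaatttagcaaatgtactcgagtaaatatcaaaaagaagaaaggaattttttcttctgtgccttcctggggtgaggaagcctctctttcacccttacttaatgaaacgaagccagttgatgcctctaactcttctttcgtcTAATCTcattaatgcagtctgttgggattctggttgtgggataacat
These are sequences of the reference genome, which is that of C57BL/6J, and the alleles of the other strains were not analysed here. A match is a string of letters and was not tested as a site; the windows with a match belong to genes with strain ratios from 1.18 for Crx to 2.11 for Rorb.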

How the data were processed

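RNA sequencing of mouse retina in 24 libraries of 8 strains was read from 1 deposited table, in which the authors give each of 28802 genes as cpm per library, that is, as counts scaled to library totals. Libraries were made with a stranded kit from total RNA depleted of ribosomal RNA. Per the submitters' methods, reads of all strains were aligned with STAR to one mouse reference genome (GRCm38/mm10) and assigned to genes in Partek Flow with its E/M model, with no versions stated. The methods name RefSeq while the table carries annotation of the Ensembl type. The deposited values equal a count divided by the library total plus a constant of 1e-04, and since only 88.5% to 90.8% of the values of at most 10 reads were whole numbers of reads within 0.02 of a read, a count test was not used. Columns of the table left unused numbered 0. Depth was 57607000 to 78150000 reads per library (median 68942500), and the cpm of the genes in the table summed to 332469 to 366567 per library.

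Differences were tested with limma 3.58.1 (R 4.3.3, package data.table in version 1.17.8) on log2(cpm + 1), with a trend in the variance, for the 16400 genes whose mean reached 0.5 cpm. An F-test over 8 strains, 28 pairs of strains and 8 comparisons of 1 strain with the mean of the other 7 were made, each with Benjamini-Hochberg adjustment over all genes and all comparisons of its kind, at 0.05. The code was tested on simulated data. Alternatives were a pseudocount of 0.1, a limit of 5 cpm, no limit, median-ratio, quantile and rod gene scaling, array weights, Xist, pigment epithelium and lens markers as covariates, q-values at 0.01, leaving out each library, the libraries high in Xist or in lens transcripts, or CAST/EiJ and PWK/PhJ. Leaving out libraries high in Xist or lens transcripts and the lens covariate were chosen after seeing the data.

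The members and the lists (rod, cone, other regulators, thyroid and retinoid partners, family relatives, bipolar, amacrine, horizontal, ganglion, Muller glia, pigment epithelium, lens, blood, microglia and endothelium) were chosen with earlier results of these data known. Text names every member and, of each list of photoreceptor genes, partners or relatives, up to 3 genes, taken from the 3 with the largest ratio of highest to lowest strain mean among those called, besides some abundant markers and genes of overlapping or sex-linked checks. Figures and sequence searches used Python 3.11.15, pandas 2.3.3 and matplotlib 3.10.9 with GENCODE and RefSeq annotation of GRCm38. Some genes of the lists are not reported here. A comparison of protein sequences was not made, as no protein table was at hand.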

Additional observations from a re-analysis of the deposited data

How the results depend on the processing

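The comparisons rest on 3 libraries per strain. No paired or blocked analysis was made. The paper states that libraries were pooled for sequencing in randomized complete blocks, but the labels do not give the block of a library. The replicate numbers link no libraries of different strains. At a mean of at least 5 cpm, a limit that left fewer genes to test, 7818 genes differed (13463 of 16400 at 0.5 cpm). Without CAST/EiJ and PWK/PhJ, 55 of the 64 called pairs of the 10 factors among the other 6 strains and 22 of their 31 called comparisons were still called, and 2 factors at 1.5-fold (4 over 8 strains). When 1 library was left out, the genes that differed numbered 12991 to 13590, the factors 8 to 10, their pairs 111 to 131, their comparisons 34 to 42 and those at 1.5-fold 4 to 4. Of the 122 called pairs, 86 were called in all 24 such fits. These were 0 of 4 for Mef2d, 1 of 6 for Nrl, 2 of 7 for Rxrg and 3 of 9 for Neurod1, up to 16 of 16 for Prdm1. No difference between the highest and lowest strain of a factor reversed. It was no longer called on the rod scale for Crx, at 0.068 (adjusted p = 0.341), and Neurod1, at 0.15 (adjusted p = 0.115), nor for Mef2d without PWK/PhJ library 3, at 0.33 (adjusted p = 0.0645), or NZO/HlLtJ library 1, at 0.325 (adjusted p = 0.0676). Xist, lens and pigment epithelium transcripts were entered as covariates, and libraries high in Xist or lens transcripts were left out. The pigment epithelium markers differed between strains, so that covariate does not separate them from strain. Dissection and mapping to one reference genome were not separated from strain either.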
